A study of Mus musculus with 6 samples.

Results

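The genes described here are 38 markers of astrocytes and Bergmann glia, read in RNA from cultured mouse cerebellar granule neurons. They were taken by gene name from a table of 23366 genes, and all 38 were found in it. Cells came from the cerebella of litters of C57BL/6 mice at postnatal day 7. They were spun through a Percoll gradient, plated in medium with B27 and a little fetal bovine serum, and given lentivirus on day 1 in vitro. The control group received the empty pLKO.1 vector (n = 3) and the knockdown group the same vector carrying a short hairpin against Kdm6b, a demethylase of histone H3 lysine 27 (n = 3). The protocol speaks of hairpins in the plural and gives the sequence of 1, of 21 bases, shown here because it is the agent compared with the empty vector. Effects of a hairpin on other transcripts and those of Kdm6b loss cannot be told apart in these groups.
Kdm6b hairpin: gttcgttacaagtgagaactc

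Astrocytes clear glutamate and potassium from around synapses, take up water through perivascular channels, feed neurons with metabolites and are joined to one another by gap junctions. Bergmann glia are the radial astrocytes of the cerebellar cortex. Their fibres guide granule neurons inward after birth, and they carry high levels of the glutamate transporter GLAST, encoded by Slc1a3. In preparations of granule neurons both are companion cells and not the labelled cell type. In bulk RNA, fewer glial cells and less of a transcript per glial cell cannot be told apart.

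Gene counts per library ranged from 50326298 to 88214069, and all 38 markers passed the filter on low counts. So did 16 of 16 genes on a granule neuron list, which was drawn up with earlier results of these data known. Levels are given as CPM, the usual depth-scaled count unit, here with TMM scaling factors. Kdm6b was at 257, 146 and 171 CPM in control replicates 1 to 3 and at 88.8, 63.3 and 79.8 CPM in knockdown replicates 1 to 3, with no overlap. Its log2 fold change was −1.31 (SE 0.25, edgeR adjusted p = 0.216) and, with the replicate number as a block, −1.28 (SE 0.11, edgeR adjusted p = 0.0282). Leaving out replicate 1 or replicate 2 ended the blocked Kdm6b call (edgeR adjusted p of 0.0933 and 0.0515). Same-numbered libraries departed from their groups in a shared way, so both fits are given where they differ. With 3 libraries in each group, the smallest two-sided p of an exact permutation test is 0.1.

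The markers differed between replicate numbers far more widely than between knockdown and control. In a fit holding both terms, 31 of 38 differed between replicate numbers (adjusted p from 0.0107 to 0.0461, Benjamini-Hochberg over all genes, edgeR quasi-likelihood), where 26.1% of all 15731 genes tested did. In 24 of 38 both libraries of replicate number 3 lay above the other 4 libraries, a pattern seen in 10.2% of all genes. The lowest pair was that of replicate number 1 for 11 markers (17.8% of all genes) and that of replicate number 2 for 9 (11.3% of all genes). The summed level of the 38 markers was 5341, 5748 and 9259 CPM in control replicates 1 to 3 and 3688, 3765 and 8884 CPM in knockdown replicates 1 to 3. The groups overlapped in this sum, and the knockdown library of replicate 3 exceeded the controls of replicates 1 and 2.

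**Figure D1:**
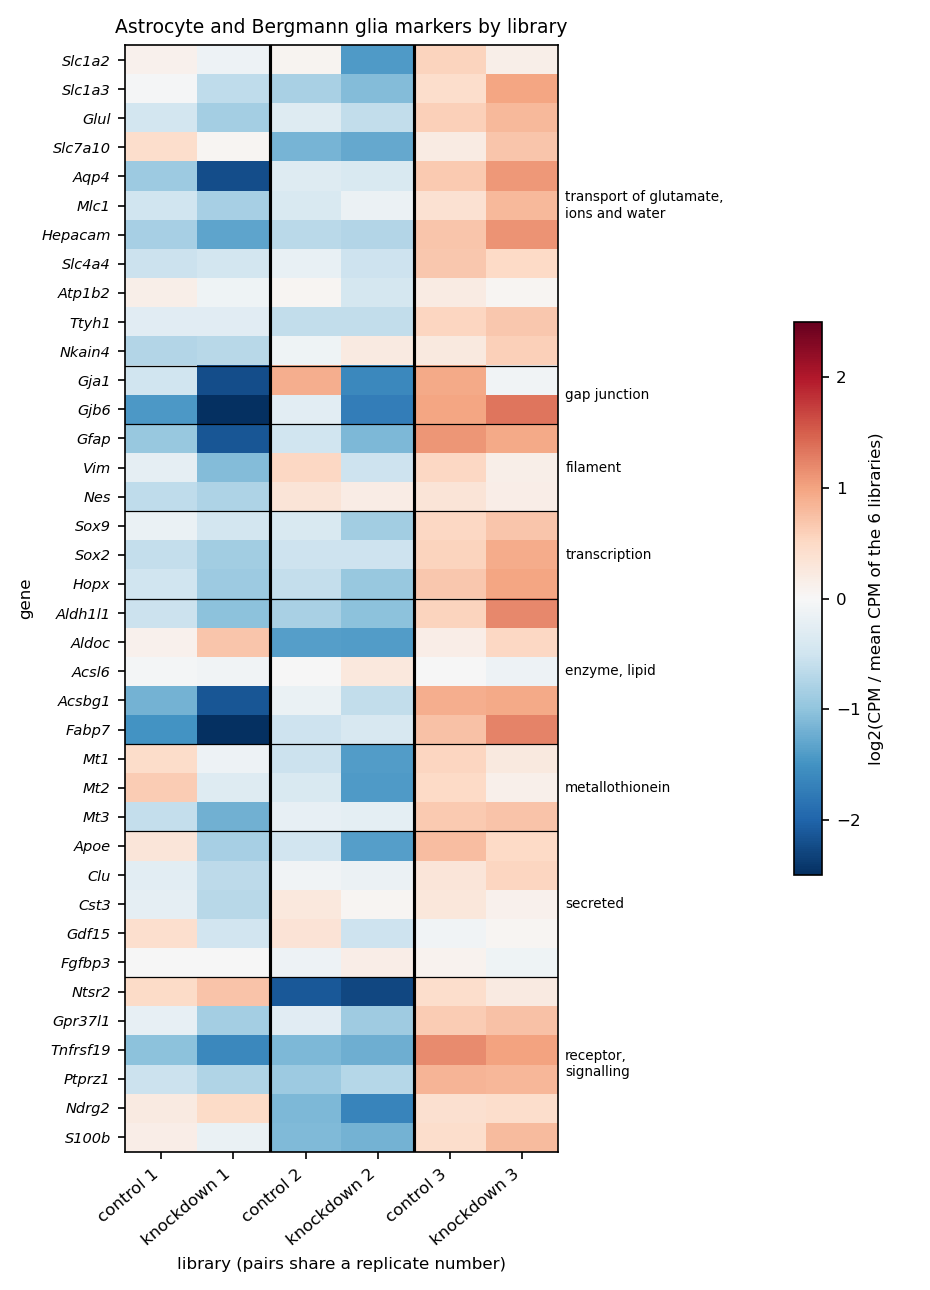
Log2 ratio of each library's CPM to the mean of the 6 libraries for the 38 markers (rows, grouped by role), with control and knockdown libraries of the same replicate number side by side and colours saturating at the ends of the scale. Both columns of replicate number 3 are red in most rows, and 24 of 38 markers had their 2 highest values there.

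Against the knockdown, 0 of 38 markers were called without the block (edgeR adjusted p from 0.471 to 0.994), where 0.00636% of all genes were, and 1 of 38 had an unadjusted p under 0.05, where 10.6% of all genes did. DESeq2 without the block called 0 of 38, against 3.60% of all genes. With the block 2 of 38 fell, Gja1 and Mt2, where 5.40% of all genes fell, and 0 of 38 rose, where 2.58% of all genes rose. Without replicate 1 the blocked fit called 0 of all genes tested, without replicate 2 it called 53 and without replicate 3 it called 1272, against 1256 with all libraries. Of the 38, 9 had an unadjusted p under 0.05 with the block, where 34.1% of all genes did. DESeq2 with the block found 9 of 38 lower, where 14.4% of all genes were, and 0 of 38 higher, where 7.47% of all genes were. These 9 were Gja1, Mt2, Vim, Apoe, Mt1, Gfap, Slc1a2, Atp1b2 and Cst3 (DESeq2 adjusted p from 2.13e-10 to 0.0439) and include both genes called by edgeR. The median log2 fold change of the markers was −0.03 without and −0.15 with the block, and that of all genes tested was 0.02 in both fits. With library totals alone as the scale and no block, the 2 medians were 0.08 and 0.09. Groups did not overlap for 1 of 38 markers, Atp1b2, against 16.7% of all genes. In all 3 pairs 11 markers were lower in the knockdown (28.5% of all genes) and 1, Nkain4, was higher (31.8% of all genes).

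Gap junction genes held the largest knockdown difference of the list. Gja1 encodes connexin 43, the main gap junction protein of astrocytes and also of fibroblasts. It stood at 146, 388 and 398 CPM in control replicates 1 to 3 and at 44.1, 67.3 and 194 CPM in knockdown replicates 1 to 3. The knockdown library was the lower one in each pair, while knockdown replicate 3 lay above control replicate 1, so that the groups overlapped. The mean was 310.5 ± 142 CPM in controls against 102 ± 80.7 CPM in knockdowns (SD, n = 3 each). Its log2 fold change was −1.61 (SE 0.65, edgeR adjusted p = 0.471) without and −1.76 (SE 0.30, edgeR adjusted p = 0.0419) with the block. Leaving out replicate 1 ended the blocked call of Gja1 (−1.78, edgeR adjusted p = 0.117), and so did leaving out replicate 2 (−1.40, edgeR adjusted p = 0.0562). Gjb6, which encodes connexin 30, the other astrocytic connexin, was near the lower end of detection. Its raw counts were 76, 118 and 293 in control replicates 1 to 3 and 2, 46 and 487 in knockdown replicates 1 to 3. Gjb6 was lower in the knockdown library in replicates 1 and 2 and higher in replicate 3, and its blocked log2 fold change of −1.38 did not pass (SE 0.92, edgeR adjusted p = 0.339).

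Metallothioneins are small cysteine-rich proteins that bind zinc and copper. Mt1 and Mt2 are induced by metals and glucocorticoids in many cells, and Mt3 is the form typical of brain. Mt2 was at 242, 120.0 and 220.1 CPM in control replicates 1 to 3 and at 125, 58.5 and 172 CPM in knockdown replicates 1 to 3. Mt1 was at 266, 133 and 279 CPM in controls against 177, 73.7 and 228 CPM in knockdowns. Both were lower in the knockdown in all 3 pairs, and in both the 2 libraries of replicate number 2 were the lowest of the 6. Mt2 had a log2 fold change of −0.71 (SE 0.44, edgeR adjusted p = 0.593) without and −0.78 (SE 0.15, edgeR adjusted p = 0.04999) with the block. Leaving out replicate 1 or replicate 2 ended the Mt2 call (edgeR adjusted p of 0.142 and 0.111), as did library totals alone as the scale (edgeR adjusted p = 0.0633). Mt1 did not pass (log2 fold change −0.50 without and −0.58, SE 0.12, edgeR adjusted p = 0.0563, with the block), but did with the block under no filter (edgeR adjusted p = 0.0466) and with DESeq2 (0.000418). Mt3 ran differently, at 25.2, 32.8 and 59.4 CPM in controls against 16.5, 31.9 and 61.7 CPM in knockdowns, with replicate number 1 lowest and replicate number 3 highest. Mt1 and Mt2 are close paralogs, and an exon of the model Gm45774 overlaps Mt2 on the opposite strand in GENCODE M21, so their counts carry that uncertainty.

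The promoters of these 3 genes are shown as the sequence context of the metallothionein values (RefSeq, build GRCm38.p6, plus strand, from 250 bases before to 50 bases after the annotated start). A difference between Mt3 and the other genes was not tested. Mt1 lies at chr8:94178839-94179138, Mt2 at chr8:94172368-94172667 and Mt3 at chr8:94152357-94152656. Capitals mark matches on either strand to TGCACNC or TGCGCNC, the core of the metal response element bound by the zinc-sensing factor MTF1. The 2 motifs cannot share a position on the same strand.
Mt1: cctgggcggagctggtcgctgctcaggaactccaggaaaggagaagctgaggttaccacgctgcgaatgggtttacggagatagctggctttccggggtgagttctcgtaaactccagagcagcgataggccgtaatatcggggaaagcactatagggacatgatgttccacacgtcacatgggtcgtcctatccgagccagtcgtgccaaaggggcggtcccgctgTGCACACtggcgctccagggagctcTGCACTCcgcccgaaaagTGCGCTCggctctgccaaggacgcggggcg
Mt2: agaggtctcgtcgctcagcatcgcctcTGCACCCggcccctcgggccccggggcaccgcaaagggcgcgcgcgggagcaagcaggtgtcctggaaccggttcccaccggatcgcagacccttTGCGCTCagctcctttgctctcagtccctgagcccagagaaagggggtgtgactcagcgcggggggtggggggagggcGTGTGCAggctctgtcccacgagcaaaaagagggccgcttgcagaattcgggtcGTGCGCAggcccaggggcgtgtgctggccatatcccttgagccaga
Mt3: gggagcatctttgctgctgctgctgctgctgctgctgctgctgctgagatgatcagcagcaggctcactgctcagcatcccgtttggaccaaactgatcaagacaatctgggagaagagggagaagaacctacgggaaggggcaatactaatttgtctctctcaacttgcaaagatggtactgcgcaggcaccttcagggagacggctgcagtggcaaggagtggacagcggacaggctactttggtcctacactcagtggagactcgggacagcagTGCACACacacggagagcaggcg

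The Mt1 window held 3 matches, at −23, 3 and 21 from the annotated start. The Mt2 window held 4, at −223, −128, −50 and 5, and the Mt3 window held 1, at 28. Of 32851 RefSeq promoter windows of 300 bases, 25.7% held at least 1 match, 1.97% at least 3 and 0.517% at least 4. A window was found for 33 of the 38 markers and at least 1 match for 12 of these. The 33 markers had 44 windows, and a marker was counted if any of its windows held a match. That count per marker is thus not on the same scale as the shares of windows. These are letter matches and not measured binding.

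Intermediate filament genes were lower in the knockdown in all 3 pairs, and 0 of 3 passed either edgeR fit (0 and 2 of 3 at an unadjusted p under 0.05 without and with the block), while DESeq2 called 0 without the block and Vim and Gfap with it. Gfap, the filament protein of mature and reactive astrocytes, was at 285, 390.4 and 1192 CPM in control replicates 1 to 3 and at 125, 253 and 1074 CPM in knockdown replicates 1 to 3. Both libraries of replicate number 3 were above the rest, and the range over replicate numbers was 5.99-fold (edgeR adjusted p = 0.0143 for the replicate number). The knockdown difference of Gfap was −0.36 (SE 0.90) without and −0.66 (SE 0.21, edgeR adjusted p = 0.107, DESeq2 adjusted p = 0.00633) with the block on the log2 scale. Vim, the vimentin gene, which fibroblasts and endothelial cells also express, was at 834, 1408 and 1405 CPM in controls against 463, 689 and 1082 CPM in knockdowns. Its groups overlapped through knockdown replicate 3, and its log2 fold change was −0.71 (SE 0.37) without and −0.75 (SE 0.15, edgeR adjusted p = 0.0531) with the block. Vim passed with the block under RLE factors (edgeR adjusted p = 0.0490), no filter (0.0398), a mean of 5 CPM or more (0.0493), limma-voom (0.0447) and DESeq2 (1.39e-05). Nes, the nestin gene of neural progenitors and of some pericytes, was lowest in replicate number 1 at 76.6 and 69.5 CPM and lay between 134 and 149.9 CPM in the other 4 libraries. The knockdown and control libraries of Nes were close within each number, at log2 differences of −0.14, −0.14 and −0.16.

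**Figure D2:**
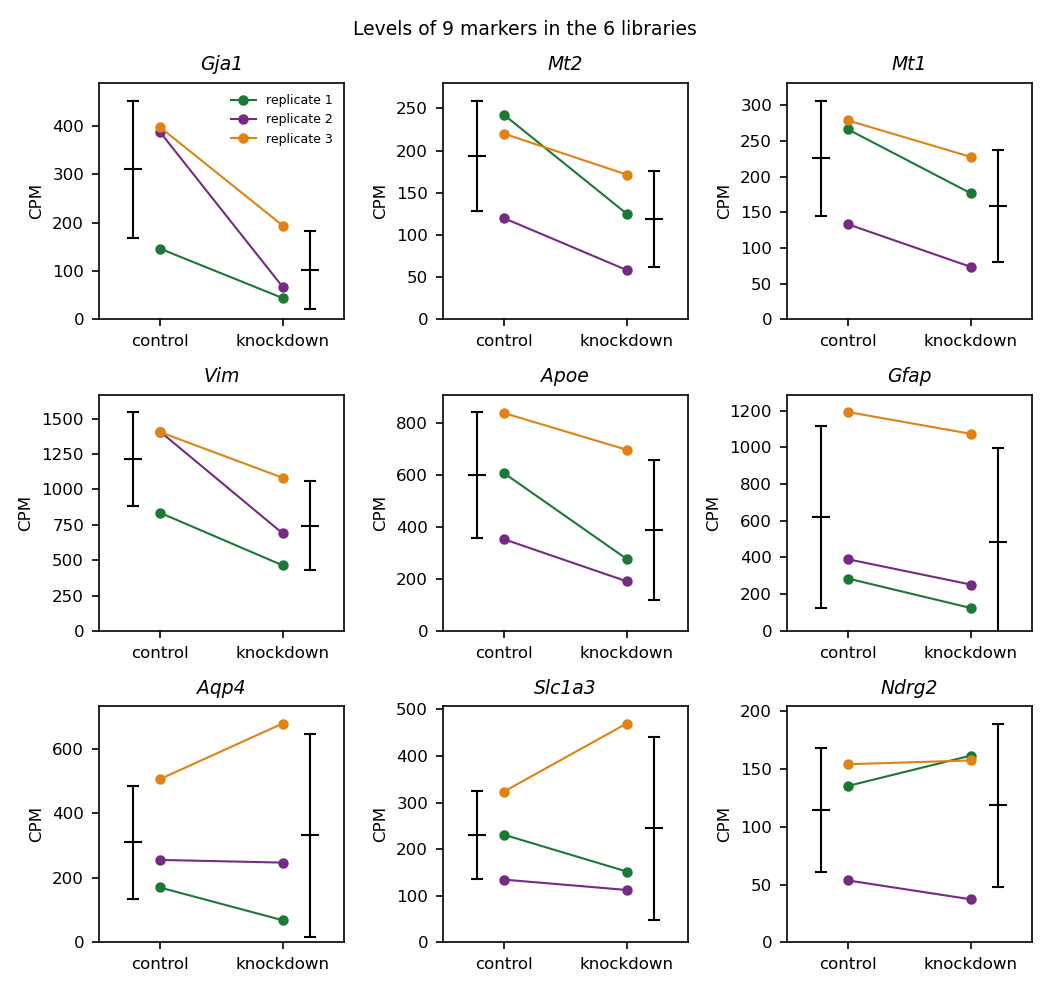
CPM (linear axes from 0) of 9 markers in the 6 libraries, where lines link libraries of equal replicate number and black marks show group means with their SD (n = 3), the bar ending at 0 for Gfap. Gja1, Mt2, Mt1, Vim, Apoe and Gfap were lower in the knockdown in all 3 pairs, and Aqp4 and Slc1a3 were lower in replicates 1 and 2 and higher in replicate 3.

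Genes that move glutamate, ions and water gave no edgeR call against the knockdown, 0 of 11 in either fit, with 0 and 2 of 11 at an unadjusted p under 0.05 without and with the block (10.6% and 34.1% of all genes). DESeq2 called 0 of 11 without the block and 2 with it, Slc1a2 (DESeq2 adjusted p = 0.0142) and Atp1b2 (DESeq2 adjusted p = 0.0315). Of the 11, 8 differed between replicate numbers. Slc1a3 was at 231, 135 and 324 CPM in control replicates 1 to 3 and 152, 113 and 469.8 CPM in knockdown replicates 1 to 3, lowest in number 2 and highest in number 3. The second astrocytic glutamate transporter, GLT-1, is encoded by Slc1a2, at 199, 192 and 271 CPM in controls against 169, 69.1 and 203 CPM in knockdowns. Knockdown replicate 2 of Slc1a2 stood below all others, and the gene passed neither the test of the knockdown (log2 fold change −0.70, SE 0.26, edgeR adjusted p = 0.137 with the block) nor that of the replicate number (edgeR adjusted p = 0.139). Glul, the glutamine synthetase that turns the glutamate taken up into glutamine, was at 197, 216 and 411 CPM in controls against 151, 177 and 477 CPM in knockdowns. Glul was thus highest in number 3 in both groups. Aqp4, the water channel of astrocyte endfeet, spanned 68.7 CPM in knockdown replicate 1 to 678 CPM in knockdown replicate 3, with controls at 170.1, 255 and 506 CPM. The order of the numbers was the same in both groups for Aqp4, 1 below 2 below 3, and its range over numbers was 5.42-fold.

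Mlc1 and Hepacam, which encode partner membrane proteins of astrocyte endfeet, had the same order in both groups. Mlc1 ran from 38.9 to 121 CPM and Hepacam from 14.7 to 80.6 CPM over the 6 libraries, each with its extremes in knockdown replicates 1 and 3. The sodium bicarbonate cotransporter gene Slc4a4 was at 169.9, 215 and 391 CPM in controls against 178, 171 and 344 CPM in knockdowns. Ttyh1, a chloride channel family gene, was nearly the same in both libraries of each number, at 90.0 and 89.5, 71.3 and 71.2, and 158 and 174 CPM. The replicate number took 99.4% of the sum of squares of log2 CPM for Ttyh1, the largest share in the list. Nkain4, which encodes a partner of the sodium pump, was between 4.34 and 10.8 CPM and was higher in the knockdown in each pair (log2 fold change 0.24, SE 0.13, edgeR adjusted p = 0.258 with the block). Atp1b2, the sodium pump beta subunit of astrocytes, also made by neurons, was at 813, 769 and 851 CPM in controls against 684, 547 and 768 CPM in knockdowns. Its highest knockdown value lay just under its lowest control value, and it did not pass (log2 fold change −0.30, SE 0.10, edgeR adjusted p = 0.127 with the block). The groups of Atp1b2 overlapped with upper-quartile factors, with library totals alone and above a mean of 5 CPM. Slc7a10, a serine transporter gene, stayed between 0.371 and 1.45 CPM.

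Transcription and progenitor genes of the glial lineage stood highest in replicate number 3 in 3 of 3 cases. Against the knockdown 0 of 3 were called in either edgeR fit or by DESeq2 without the block, with 0 of 3 at an unadjusted p under 0.05 in both edgeR fits. Sox9, needed for astrocyte fate, was at 29.9, 25.9 and 48.0 CPM in control replicates 1 to 3 and 24.3, 18.3 and 54.4 CPM in knockdown replicates 1 to 3. Sox2, a factor of neural progenitors that Bergmann glia keep, ranged from 10.8 to 37.3 CPM and the homeodomain gene Hopx from 14.8 to 56.5 CPM. Both had their 2 highest values in number 3.

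Enzyme and lipid-binding genes were split by which replicate number was lowest. Fabp7, the brain lipid-binding protein of radial and Bergmann glia, was at 72.2, 141 and 336 CPM in control replicates 1 to 3 and at 35.3, 154 and 474 CPM in knockdown replicates 1 to 3. Its range over numbers was 7.91-fold (edgeR adjusted p = 0.0226 for the replicate number), and number 1 was lowest in both groups. Acsbg1, an acyl-CoA synthetase gene, had the same order, from 5.49 CPM in knockdown replicate 1 to 46.7 CPM in knockdown replicate 3. Aldoc, the brain aldolase known as zebrin II, which Purkinje cells also make, was lowest in number 2 instead, at 48.5 and 47.9 CPM against 135 to 203 CPM in the other 4 libraries. Aldh1l1, the folate enzyme used as a general astrocyte marker, was at 54.3, 44.7 and 116 CPM in controls against 38.6, 38.8 and 180.3 CPM in knockdowns, so that only number 3 stood out. Acsl6, an acyl-CoA synthetase gene that neurons also express, lay between 54.6 and 71.1 CPM and did not differ between numbers (edgeR adjusted p = 0.316). None of the 5 was called against the knockdown in either edgeR fit, and 0 of 5 had an unadjusted p under 0.05 with or without the block. DESeq2 without the block also called 0 of 5.

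Among secreted proteins the lipid carrier gene Apoe was the most unequal. It was at 607, 353 and 838 CPM in control replicates 1 to 3 and 277, 191 and 696 CPM in knockdown replicates 1 to 3, lower in the knockdown in each pair with overlapping groups. Its log2 fold change was −0.63 (SE 0.55) without and −0.76 (SE 0.18, edgeR adjusted p = 0.0667, DESeq2 adjusted p = 0.000293) with the block. Microglia also make Apoe and the protease inhibitor Cst3. The Cst3 level went from 149, 209 and 211 CPM in the controls to 107, 179 and 189 CPM in knockdowns and did not pass in edgeR (edgeR adjusted p = 0.0983 with the block, DESeq2 0.0439). Clu, the clusterin gene, ranged from 39.3 to 90.8 CPM with number 1 lowest and number 3 highest. Gdf15, a stress-induced cytokine, and Fgfbp3, a binding protein of fibroblast growth factors, did not follow replicate number 3. Gdf15 was at 3.86, 3.66 and 2.69 CPM in controls against 2.07, 2.00 and 2.97 CPM in knockdowns, and Fgfbp3 lay between 7.12 and 8.76 CPM. These 2 genes gave the largest adjusted p in the list for the replicate number (edgeR adjusted p = 0.972 and 0.977).

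All 6 receptor and signalling genes differed between replicate numbers and 0 of 6 between knockdown and control in either edgeR fit or by DESeq2 without the block, with 0 of 6 at an unadjusted p under 0.05 in both edgeR fits. Ntsr2, a neurotensin receptor gene, was at 4.35, 0.720 and 4.27 CPM in control replicates 1 to 3 and 5.17, 0.650 and 3.69 CPM in knockdown replicates 1 to 3. Number 2 held the low values in both groups, and the range over numbers was 6.67-fold. The stress-responsive gene Ndrg2 (53.6 and 37.3 CPM in number 2, 135 to 161 CPM elsewhere) and the calcium-binding protein gene S100b (13.3 and 12.7 CPM in number 2, 25.7 to 49.5 CPM elsewhere) were low there too. Tnfrsf19, a receptor of the tumour necrosis factor family, was instead set apart in number 3, at 35.0 and 30.9 CPM against 5.01 to 7.57 CPM in the other 4 libraries. Ptprz1, a receptor phosphatase of astrocytes and oligodendrocyte precursors, behaved alike, at 198 and 196 CPM against 59.1 to 75.8 CPM. Gpr37l1, a receptor gene of Bergmann glia and other astrocytes, was at 91.2 and 97.4 CPM in number 3 and 31.5 to 50.8 CPM elsewhere.

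Set beside each other, the range over replicate numbers exceeded the absolute knockdown difference in 36 of 38 markers, and in 78.5% of all genes tested. The 2 exceptions were Gdf15 and Fgfbp3. A range over 3 numbers is by its make wider than a difference of 2 means, so the share over all genes is the figure to read it against. The median range was 1.51 for the markers and 0.48 for all genes, and the median absolute knockdown difference 0.18 and 0.23, all on the log2 CPM scale. Replicate number took a median of 91.3% of a marker's sum of squares of log2 CPM and the knockdown 2.31%, against 62.7% and 19.5% over all genes. For Gja1 the knockdown took more than the replicate number, 55.3% against 38.1%. The same held for Atp1b2 (49.3% against 38.9%), Gdf15 (55.1% against 0.596%) and Fgfbp3 (3.07% against 2.17%). The rest, due to neither term, was 6.61% for Gja1, 11.8% for Atp1b2, 44.3% for Gdf15 and 94.8% for Fgfbp3.

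**Figure D3:**
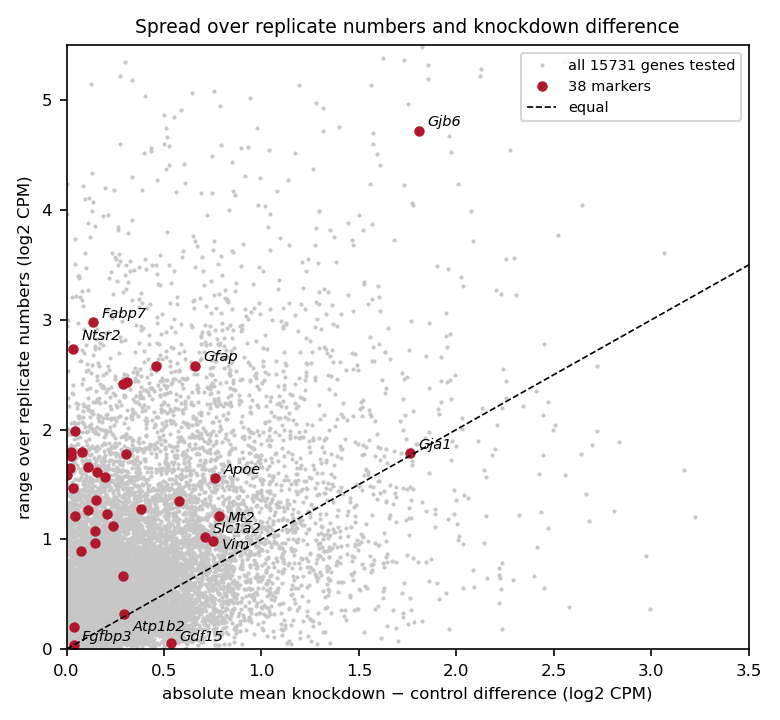
Range over the 3 replicate numbers of the mean log2 CPM of both groups against the absolute mean knockdown difference (log2 CPM), with the 38 markers in red, all genes tested in grey (26 lie beyond the axes) and a dashed line where both are equal. Only Gdf15 and Fgfbp3 among the markers lie below the line, Gja1 and Atp1b2 lie close to it and the rest lie above.

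Leaving out a replicate number changed which markers differed. Between numbers 2 and 3 alone 20 of 38 differed, against 1.76% of all genes, between numbers 1 and 3 24 of 38, against 30.9%, and between numbers 1 and 2 16 of 38, against 21.1%. The share called between numbers 2 and 3 was thus far above the background, whereas in the other comparisons many other genes differed as well.

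The knockdown difference itself varied with the replicate number. The median log2 difference of the markers was −0.41 in replicate 1, −0.21 in replicate 2 and 0.08 in replicate 3, and that of all genes was 0.01, 0.00 and 0.03. In replicates 1 and 2 the knockdown library was lower for 32 of 38 markers each, against 48.3% and 50.0% of all genes, and in replicate 3 it was higher for 22 of 38, against 53.7%. With 1 library per group and number this variation was not tested. The median without the block was −0.74 when knockdown replicate 3 was left out, −0.27 without control replicate 2 and 0.32 without control replicate 3. It was −0.21 without control replicate 1, 0.11 without knockdown replicate 1 and 0.13 without knockdown replicate 2. With the block and without replicate 3, 7 of 38 markers fell, where 6.63% of all genes fell. These were Apoe (log2 fold change −1.02), Gfap, Gja1 (−2.13), Gpr37l1, Mt1 (−0.73), Mt2 (−1.001) and Vim (−0.95).

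**Figure D4:**
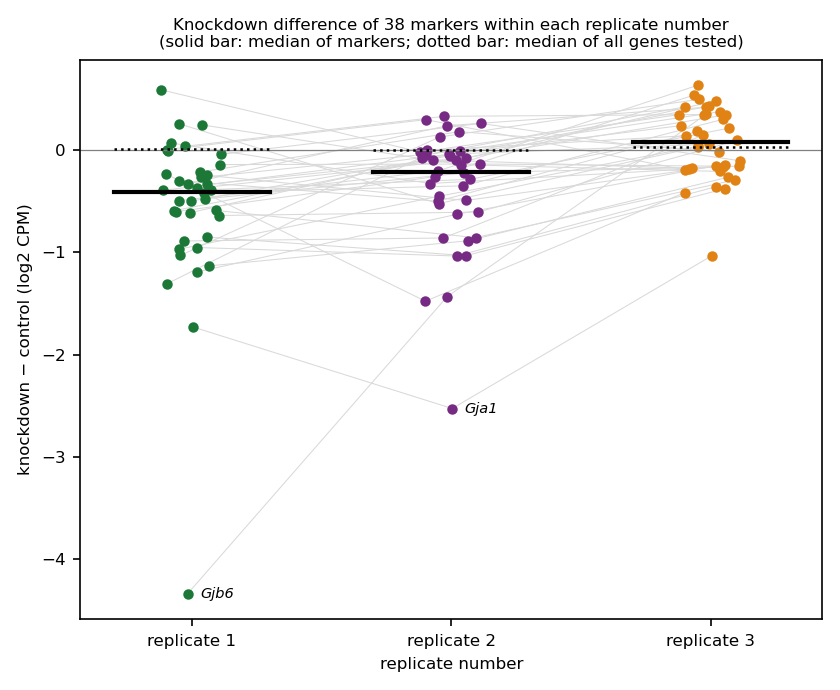
Knockdown minus control log2 CPM of each of the 38 markers within each replicate number, with thin lines joining a gene's 3 values, solid bars at the marker medians (−0.41, −0.21 and 0.08) and dotted bars at the medians of all genes tested. Most points lie below 0 in replicates 1 and 2 and 22 of 38 lie above 0 in replicate 3, and the lowest point, Gjb6 in replicate 1, rests on 2 knockdown counts.

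Other astrocyte genes from a separate list showed a similar order of libraries. Of 28 tested, 17 were highest in both libraries of number 3 (10.2% of all genes) and 19 differed between replicate numbers (26.1% of all genes). Among them Kcnj10, the potassium channel Kir4.1 that buffers potassium, was at 56.0, 54.1 and 143 CPM in control replicates 1 to 3 and 38.3, 41.6 and 121 CPM in knockdown replicates 1 to 3. Against the knockdown edgeR called 0 of 28 without the block, with 3 of 28 at an unadjusted p under 0.05 (10.6% of all genes). DESeq2 without the block called 1 of 28 (3.60% of all genes). With the block in edgeR 4 fell (5.40% of all genes) and 0 rose (2.58% of all genes), with a median log2 fold change of −0.26. The 4 were the chemokine gene Cxcl14 (−1.74, SE 0.16), the thyroid hormone deiodinase gene Dio2 (−0.92, SE 0.12), the Sonic hedgehog effector gene Gli3 (−0.89, SE 0.13) and Fgfr3 (−0.65), with edgeR adjusted p from 0.0282 to 0.0499. Of 18 genes of reactive astrocytes 4 fell (5.40% of all genes) and 0 rose (2.58% of all genes) with the block. Among the 4 were the protease inhibitor gene Timp1 (−1.65, SE 0.18), the oncostatin M receptor gene Osmr (−1.003, SE 0.12) and Emp1 (−1.19, SE 0.16). Without the block edgeR called 0 of 18, and DESeq2 called 2, Timp1 and Osmr (3.60% of all genes). Whether other cells of the culture had a part in the falls of both lists was not tested. Of the 18 reactive astrocyte genes 4 were highest in both libraries of number 3 (10.2% of all genes). Another 5 were lowest there (1614 of all 15731 genes). Lcn2 was among these 5, at 433, 131 and 19.5 CPM in controls against 341, 115 and 8.31 CPM in knockdowns. Of 12 neural progenitor genes 0 were called against the knockdown in either edgeR fit, the smallest p being that of Rest (−0.51, SE 0.11, edgeR adjusted p = 0.0568 with the block), and 11 of 12 differed between numbers. With an unadjusted p under 0.05 there were 0 of 12 without and 6 of 12 with the block (10.6% and 34.1% of all genes), and DESeq2 without the block called 0.

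Markers of other cells in the culture moved with the same terms. The summed level of 16 pericyte and fibroblast genes was 13470 to 27010 CPM in controls against 4582 to 12410 CPM in knockdowns, without overlap. Most of this sum came from Col1a1, Col1a2, Col3a1 and Fn1. Gene by gene, groups did not overlap for 2 of 16 (16.7% of all genes). With the block 8 of 16 fell (5.40% of all genes), among them Col3a1 (−1.68), Fn1 (−1.41) and Pdgfrb (−1.34), and 0 rose. Without the block edgeR called 0 of 16, and DESeq2 called 2, both lower (3.60% of all genes in either direction). In edgeR without the block 13 of 16 log2 fold changes were negative. The 3 positive ones were those of Rgs5 (0.68), Kcnj8 (0.21) and Vtn (0.19). Pericytes and fibroblasts also express Gja1 and Vim, and their part in the lower levels of both was not tested. The summed level of 16 microglia genes was 73.4 to 234 CPM in controls against 32.4 to 96.5 CPM in knockdowns. These genes bear on Apoe and Cst3. With the block 1 of 16 fell, Tmem119 (5.40% of all genes). Tmem119 was at 42.67 CPM in control replicate 2 and 13.85 CPM in knockdown replicate 2, above replicate 1 in each group. Like Col1a1, it rose from replicate 1 to replicate 3 in both groups. Whether its fall came from microglia was not tested. The complement gene C1qa was at 23.4, 0.120 and 8.06 CPM in control replicates 1 to 3 and 0.660, 0.0557 and 4.68 CPM in knockdown replicates 1 to 3. In replicate 2, where 13 of 16 microglia genes had their 2 lowest values, Apoe was at 353 and 191 CPM and Cst3 at 209 and 179 CPM.

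Oligodendrocyte lineage genes followed another order of replicate numbers. Of 15 tested, 11 were lowest in both libraries of number 2 (11.3% of all genes) and 4 were highest in number 3 (10.2% of all genes). Their summed level was 261 and 178 CPM in number 2 and 953 to 1373 CPM in the other 4 libraries. With the block 3 of 15 fell (5.40% of all genes), among them Ugt8a and Cspg4. None of 14 endothelial genes was called in either edgeR fit (smallest p Esam, −1.04, SE 0.22, edgeR adjusted p = 0.0553 with the block), 1 of 14 had an unadjusted p under 0.05 in each fit and DESeq2 without the block called 0. Of 16 granule neuron genes 1 rose with the block (2.58% of all genes), the tubulin gene Tubb3 (1.02, SE 0.15). With the block 1 of 16 fell (5.40% of all genes), Etv1 (−1.48, SE 0.18), and 0 of 16 were highest in number 3 (10.2% of all genes). Their summed level was 5328 to 7592 CPM in controls against 5333 to 7631 CPM in knockdowns, lowest in both groups in number 3, where the astrocyte sum was highest. With the block 2 of 9 interneuron and Purkinje cell genes fell, Gad1 and Car8, and 0 rose. Of 8 ependymal and choroid plexus genes 1 fell with the block, Rarres2, and 0 rose. Of all genes 5.40% fell and 2.58% rose with the block. Without the block edgeR and DESeq2 called 0 genes of either list. The lists were not tested against one another.

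**Figure D5:**
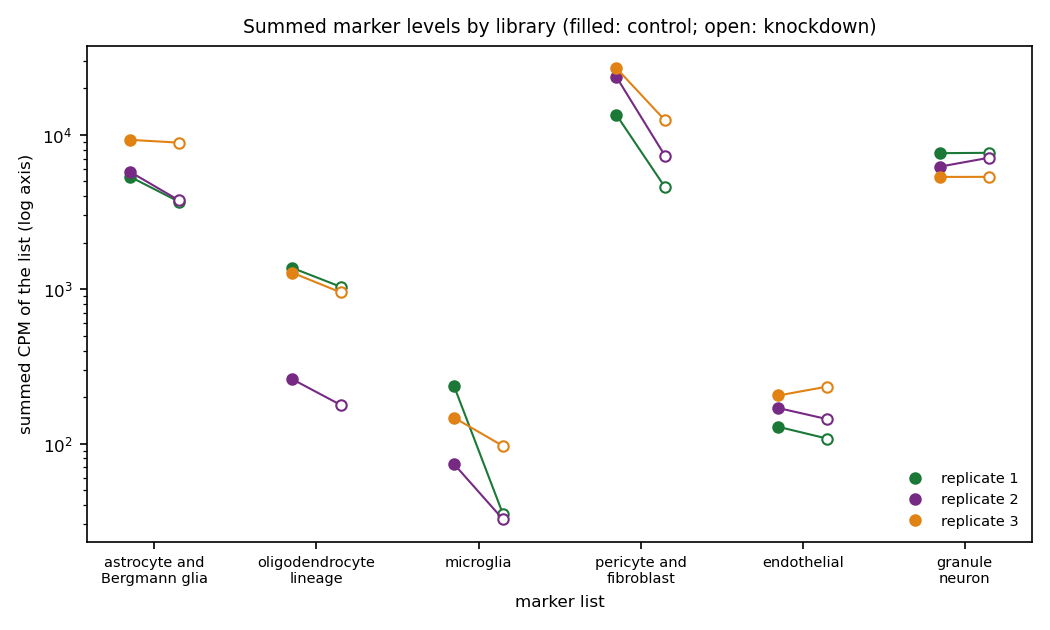
Summed CPM (log axis) of 6 marker lists in each library, filled circles for controls and open circles for knockdowns, joined within a replicate number. The astrocyte and Bergmann glia sum is highest in replicate 3 in both groups, the oligodendrocyte sum is lowest in replicate 2, and the pericyte and fibroblast sum is lower in the knockdown in every pair.

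Per kilobase of exon in GENCODE M21, the markers spanned a wide range of mean levels over the 6 libraries. Mt2 (266 CPM per kilobase), Apoe (231), Vim (207), Atp1b2 (181), Fabp7 (162) and Mt1 (155) were highest, and Slc7a10 (0.425), Ntsr2 (1.01), Gjb6 (1.06) and Gdf15 (1.55) lowest. Gfap stood at 131, Aqp4 at 51.5, Slc1a3 at 27.8 and Slc1a2 at 14.0 CPM per kilobase. Of the highest, Vim, Apoe and Atp1b2 are also made by other cells of the culture, so their rank is not that of astrocytes alone. Mt1 and Mt2 are induced in many cells, so their rank need not be that of astrocytes alone either. Exons of Slc1a2, Glul, Slc7a10, Ttyh1, Nkain4, Hopx, Aldh1l1 and Acsl6 share positions with opposite-strand genes, and Glul and Aldh1l1 also with models on their own strand, so the counts of these markers are uncertain.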

How the data were processed

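Counts came from 1 deposited table of whole-number reads per gene, not normalized, made by the authors from stranded mRNA libraries with 50 bp single-end reads, per the labels' protocols. Trimmomatic, TopHat2, HTSeq, edgeR, DESeq2 and build mm9 are named, without versions, in the submitters' processing notes. The annotation and the strand setting of the counting were not stated in the labels, nor was it stated which cultures received the BDNF named in the growth protocol. Rows that name no gene (reads outside genes 12.1% to 15.0% of all counts, not uniquely aligned 16.0% to 19.3%) were left out. Columns were matched to samples by their descriptions, and no 2 libraries of a group were alike within counting error (182 to 405 chi-square units per degree of freedom). Series text calls the replicates biological and gives no meaning to a shared number.

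The edgeR filter filterByExpr (count of at least 10, total of at least 15) kept 15731 genes, which were scaled with TMM and tested across all genes with edgeR 4.0.16 (R 4.3.3, quasi-likelihood F test, Benjamini-Hochberg at 0.05), first without a replicate term. Log2 CPM used a prior count of 2. SE is the absolute log2 fold change over the square root of F. The replicate number was tested with 2 degrees of freedom beside the knockdown. Same-numbered libraries deviated together across genes (correlations of 0.772, 0.709 and 0.701, others −0.532 to −0.135), so blocked values are printed where they change a call; this pairing is read from the data. DESeq2 1.42.0 and limma-voom (limma 3.58.1) were alternatives. Fits were tested on simulated counts. The members and lists were chosen with earlier results of these data known. Of the other lists up to 3 called genes, or else that with the smallest p, were named, except 1 that is not reported here; Fgfr3, Kcnj10, Lcn2, C1qa and the remaining marker genes printed were added after their values were seen. GENCODE M21 (GRCm38) was matched by gene name only.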

Additional observations from a re-analysis of the deposited data

How the results depend on the processing

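Without the block no alternative of scaling, filter or tool called a marker. With the replicate block 2 were called (7.98% of all genes), 3 with RLE factors (8.53%), 2 with upper-quartile factors (8.58%), 1 with library totals alone (8.11%), 3 above a mean of 5 CPM (12.2%), 3 with limma-voom (8.86%), 4 with no filter (8.13%) and 9 with DESeq2 (21.9%), alternatives chosen after seeing the data except the first. Leaving out replicates gave 0 to 7 calls. With the settings otherwise as in the report, the edgeR block changed no other marker's call than those of Gja1 and Mt2; Vim was added with RLE factors, 5 CPM and limma-voom, and Vim and Mt1 with no filter. Kdm6b passed with DESeq2 (−1.32) and, with the block, at −1.28, with RLE factors at −1.295, upper-quartile factors −1.267, library totals −1.207, no filter −1.292, 5 CPM −1.273, DESeq2 −1.295 and limma-voom −1.274, and was −1.377 with it and without replicate 3, and lay between −1.47 and −1.03 without single libraries or replicates. Over all genes edgeR called 1 without and 1256 with the block, DESeq2 567 without it, and edgeR with the block 0, 53 and 1272 without replicates 1, 2 and 3. Library totals alone moved the median of all genes to 0.09, and with the block they gave 723 higher and 553 lower calls, against 406 and 850. The median of the markers ran from −0.74 to 0.32 without single libraries and was −0.356 with the block and without replicate 3. Upper-quartile factors, library totals alone and a mean of at least 5 CPM each left 0 markers with groups that did not overlap. Between replicate numbers 16 to 24 markers differed without 1 of the numbers.

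The sign of 28 markers turned in at least 1 alternative, all without a call. With the replicate block it turned for Slc1a3 (−0.11), Aqp4 (−0.30), Hepacam (−0.037), Hopx (−0.15), Aldh1l1 (−0.021), Fabp7 (−0.13), Ntsr2 (−0.023), Ndrg2 (−0.075) and S100b (−0.021), and with limma-voom for Slc1a3 (−0.11), Aqp4 (−0.29), Hepacam (−0.038), Hopx (−0.14), Aldh1l1 (−0.016), Fabp7 (−0.12), Ndrg2 (−0.090) and S100b (−0.011). With library totals alone it turned for Glul (0.072), Sox9 (0.0033), Mt3 (0.012), Clu (0.078) and Ptprz1 (0.095). With the block it also turned without replicate 1 for Hopx (−0.019), Mt3 (0.0087), Clu (0.083), Ntsr2 (−0.19), Ptprz1 (0.081), Ndrg2 (−0.24), without replicate 2 for Slc1a3 (−0.049), Aqp4 (−0.46), Hepacam (−0.042), Hopx (−0.0698), Acsl6 (−0.089), Fabp7 (−0.28), Fgfbp3 (−0.11), S100b (−0.013), without replicate 3 for Slc1a3 (−0.44), Slc7a10 (−0.28), Aqp4 (−0.68), Mlc1 (−0.053), Hepacam (−0.28), Ttyh1 (−0.012), Sox2 (−0.14), Hopx (−0.39), Aldh1l1 (−0.36), Fabp7 (−0.46), Ndrg2 (−0.14), S100b (−0.22). Without single libraries the log2 fold changes ran over these ranges: Slc1a3 −0.80 to 0.42, Glul −0.74 to 0.36, Slc7a10 −0.43 to 0.41, Aqp4 −0.98 to 0.63, Mlc1 −0.34 to 0.53, Hepacam −0.90 to 0.82, Slc4a4 −0.57 to 0.25, Ttyh1 −0.40 to 0.46, Nkain4 −0.018 to 0.56, Gjb6 −2.81 to 0.64, Gfap −1.72 to 0.51, Nes −0.40 to 0.11, Sox9 −0.70 to 0.20, Sox2 −0.60 to 0.61, Hopx −0.92 to 0.55, Aldh1l1 −0.89 to 0.78, Acsl6 −0.099 to 0.12, Acsbg1 −1.29 to 0.47, Fabp7 −0.95 to 1.04, Mt3 −0.69 to 0.33, Clu −0.39 to 0.23, Fgfbp3 −0.057 to 0.10, Ntsr2 −0.52 to 0.49, Gpr37l1 −0.98 to 0.11, Tnfrsf19 −1.52 to 0.95, Ptprz1 −0.75 to 0.69, Ndrg2 −0.29 to 0.46, S100b −0.56 to 0.40. The cause was not tested. Depth limits Gjb6, Slc7a10 and Ntsr2 most.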
